A study of Sus scrofa with 16 samples.

Results

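Calponins and transgelins are small actin-binding proteins, and the 5 genes described here are the calponins CNN1, CNN2 and CNN3 and the transgelins TAGLN and TAGLN2. They were taken by symbol from a table of 29552 named pig genes, and all 5 passed the filter on low counts that left 14530 genes to test. The data are 16 libraries of polyA RNA from valve interstitial cells, which maintain the matrix of the aortic valve leaflet, taken from pigs of 5 to 6 months. The 4 groups, n = 4 biological replicates each, were female cells on tissue culture plastic, female cells on a PEG-norbornene hydrogel with an elastic modulus of about 5.8 kPa, male cells on plastic and male cells on the same gel. All were kept for 48 hours in Media 199 with 1% fetal bovine serum and the same antibiotics. The submitters regarded cells on plastic as myofibroblasts and cells on gel as quiescent fibroblasts; the labels give no modulus for plastic.

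Members of the family share 1 calponin-homology domain at the amino-terminal end and one or more short calponin-like repeats after it, and they bind along actin filaments. CNN1 (basic calponin) and TAGLN (transgelin, also called SM22-alpha) are markers of differentiated smooth muscle, and both are textbook targets of serum response factor (SRF) acting with myocardin or the myocardin-related factors. CNN2 (neutral calponin) is found in many cell types besides smooth muscle, where its level is known to follow mechanical tension. CNN3 (acidic calponin) is widely expressed, brain included, and TAGLN2 is the transgelin of many non-muscle cells, leukocytes among them. In valve interstitial cells CNN1 and TAGLN are read, with ACTA2, as signs of the myofibroblast state.

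On the Sscrofa11.1 assembly, per the RefSeq annotation, CNN1 lies on chromosome 2 from 70183370 to 70190756 and CNN2 on the same chromosome, 7.19 Mb further on, from 77376020 to 77385594. TAGLN2 is on chromosome 4 from 90566272 to 90574762, with CNN3 31.9 Mb beyond it from 122504450 to 122528351. TAGLN is on chromosome 9 from 44561756 to 44567385. The annotated span of CNN3 overlaps that of the transporter gene SLC44A3 by 430 bases, and the closest neighbours of the 4 other genes lay 188 to 2098 bases away without overlap. The strand setting of the counting is not given in the sources used here, so reads in the shared stretch of CNN3 and SLC44A3 cannot be told apart. SLC44A3 averaged 845.4 counts per library and did not pass the test between surfaces (log2 change 0.28, SE 0.15, adjusted p = 0.208 in female cells; -0.10, SE 0.15, adjusted p = 0.684 in male cells; edgeR). PCSK7, 188 bases from TAGLN, fell by 0.76 (SE 0.19, adjusted p = 0.00692, edgeR) in female cells and changed by -0.51 (adjusted p = 0.0534) in male cells. SIDT2, further from TAGLN at 2039 bases, changed by 0.06 (adjusted p = 0.783) in female cells and rose by 0.43 (SE 0.14, adjusted p = 0.0325) in male cells. ABCA7, 671 bases from CNN2, rose in the same direction as CNN2 and by more, with a log2 change of 1.64 (SE 0.25, adjusted p = 0.000149) in female cells and 2.1 (SE 0.25, adjusted p = 1.67e-05) in male cells; it averaged 168.1 counts per library. ELOF1, 1752 bases from CNN1, fell by 0.36 (SE 0.11, adjusted p = 0.0262) in female cells and changed by -0.17 (adjusted p = 0.292) in male cells. Any part of reads from one neighbour counted to the other was not tested. TAGLN3, the neuronal transgelin, is not a member of the set: it had 14 counts over all 16 libraries, 0 in 8 of them, and was not tested.

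Libraries held 16897547 to 27436151 counts in named genes; male gel 2 was the shallowest, and the next had 20245351. Of 10 markers of valve interstitial cells and fibroblasts, 10 were detected, with summed levels of 52300 to 78200 CPM (counts scaled to a common library total, with TMM factors). Their changes between surfaces went both ways (given with the contractile genes). Of 20 endothelial markers 19 were tested, with sums of 292 to 775 CPM in female plastic, 240 to 433 CPM in female gel, 284 to 474 CPM in male plastic and 217 to 414 CPM in male gel; the defining marker PECAM1 ran from 21.5 to 124 CPM and VWF from 0.135 to 4.17 CPM. Leukocyte markers summed to at most 40.1 CPM, and PTPRC, which defines leukocytes, had 1 count in all. Cardiac and skeletal muscle markers summed to at most 99 CPM, with 8 of 16 at 0 in all libraries and higher sums on plastic (given with the contractile genes), and epithelial and erythroid markers to at most 0.452 CPM. A second principal component, with 16.3% of the variance of the 500 most variable genes (CNN1 among them), separated female 1, female 4 and male 4 from the rest, on plastic as on gel. In bulk RNA, fewer cells of a type and less RNA per cell cannot be told apart, and this holds for every level below.

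On plastic against gel, 4 of the 5 genes rose and CNN3 did not pass the test, in female and in male cells alike. CNN1 rose 4.69-fold in female and 4.45-fold in male cells, TAGLN 2.32-fold and 2.66-fold, CNN2 1.87-fold and 1.88-fold, and TAGLN2 1.31-fold and 1.43-fold in the same order. A gene was called changed at an adjusted p under 0.05, from edgeR's quasi-likelihood test with Benjamini-Hochberg adjustment over all tested genes, and all printed adjusted p values are of that kind unless another test is named. By that rule 12.7% of all tested genes were called higher on plastic in female cells and 12.9% in male cells, against 4 of these 5 genes in each. Plastic lay wholly above gel for 13.7% of tested genes in female cells and 14.8% in male cells, and for the same 4 members in both.

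CNN1, which binds actin and tropomyosin and restrains the actomyosin ATPase of smooth muscle, had 520.4, 865.9, 929.5 and 688.4 CPM in female plastic libraries 1 to 4, against 114.8, 213, 224 and 89.1 CPM in female gel libraries 1 to 4. In male cells it had 866.3, 799.5, 776.7 and 705.2 CPM on plastic, against 226.2, 185, 192.9 and 103.2 CPM on gel. The lowest plastic library of either sex, female plastic 1, was still above the highest gel library, male gel 1. The mean was 751.1 ± 184.5 CPM on plastic and 160.2 ± 68.25 CPM on gel in female cells, and 786.9 ± 66.45 CPM on plastic and 176.8 ± 52.23 CPM on gel in male cells (SD, n = 4 each). The log2 change was 2.23 (SE 0.29, adjusted p = 3.68e-05) in female cells, a fold of 4.69 with a 95% interval of 3.07 to 7.16. In male cells it was 2.15 (SE 0.29, adjusted p = 4.51e-05), a fold of 4.45 with an interval of 2.92 to 6.79. Of all tested genes, 98.9% had a lower change in female cells and 98.7% in male cells.

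CNN2, which stabilises stress fibres in many cell types, had 256.2, 323.7, 327.7 and 278.3 CPM in female plastic libraries 1 to 4, against 136, 195, 194 and 108.1 CPM in female gel. Male libraries gave 320.2, 341, 346.7 and 270.9 CPM on plastic, against 178.7, 185, 199.8 and 118.5 CPM on gel. Groups did not overlap in either sex, and the lowest values were again those of female 1, female 4 and male 4. The log2 change was 0.91 in both sexes (SE 0.185 in each; adjusted p = 0.00186 and 0.00177 by edgeR). As a fold this was 1.87 in female cells and 1.88 in male cells, each with a 95% interval of 1.43 to 2.46.

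CNN3, the acidic calponin of actin filaments in non-muscle and embryonic cells, had 331.2, 320.6, 339.1 and 383.9 CPM in female plastic libraries 1 to 4, against 311.2, 301.2, 335.2 and 300.9 CPM in female gel. Male libraries gave 309, 310.9, 352.3 and 307.4 CPM on plastic, against 285.4, 344.3, 334 and 310.9 CPM on gel. The groups overlapped in both sexes, and all 16 libraries lay between 285.4 and 383.9 CPM. The log2 change was 0.14 (SE 0.09, adjusted p = 0.275) in female cells and 0.01 (SE 0.09, adjusted p = 0.972) in male cells. The 95% interval of the fold was 0.969 to 1.25 in female cells and 0.883 to 1.14 in male cells, so that changes as large as that of CNN2 lay outside it.

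TAGLN, which gels actin filaments and is among the earliest markers of smooth muscle, had 2769, 4978, 5429 and 3014 CPM in female plastic libraries 1 to 4, against 1294, 2261, 2242 and 1194 CPM in female gel. In male libraries it had 4890, 4946, 4916 and 3688 CPM on plastic, against 1974, 1675, 2049 and 1231 CPM on gel. All plastic libraries lay above all gel libraries, but the replicates fell apart within female cells, where numbers 1 and 4 were low and 2 and 3 high on each surface. The log2 change was 1.21 (SE 0.25, adjusted p = 0.00225) in female cells, a fold of 2.32 with a 95% interval of 1.6 to 3.36. In male cells it was 1.41 (SE 0.255, adjusted p = 0.000656), a fold of 2.66 with an interval of 1.83 to 3.87.

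TAGLN2 had 383.4, 336.9, 362.3 and 332.5 CPM in female plastic libraries 1 to 4, against 259.3, 257.7, 250.2 and 309.8 CPM in female gel. In male cells it had 341.8, 317.6, 357.5 and 354.2 CPM on plastic, against 254.1, 178.7, 239.9 and 288.1 CPM on gel. Plastic was above gel without overlap in both sexes, by a narrow gap between female plastic 4 and female gel 4. The log2 change was 0.39 (SE 0.12, adjusted p = 0.0251) in female cells, a fold of 1.31 with a 95% interval of 1.1 to 1.57, and 0.51 (SE 0.12, adjusted p = 0.005) in male cells, a fold of 1.43 with an interval of 1.2 to 1.7. The female call was lost on leaving out female gel 1 (adjusted p = 0.0606), female gel 2 (0.0673), female gel 3 (0.0757), female plastic 1 (0.0572) or female plastic 3 (0.0567), and without the 6 libraries of female 1, female 4 and male 4 (log2 change 0.48, adjusted p = 0.077). The adjusted p of this call is the highest of the 8, and the male call of TAGLN2 held in each of those fits.

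**Figure D1:**
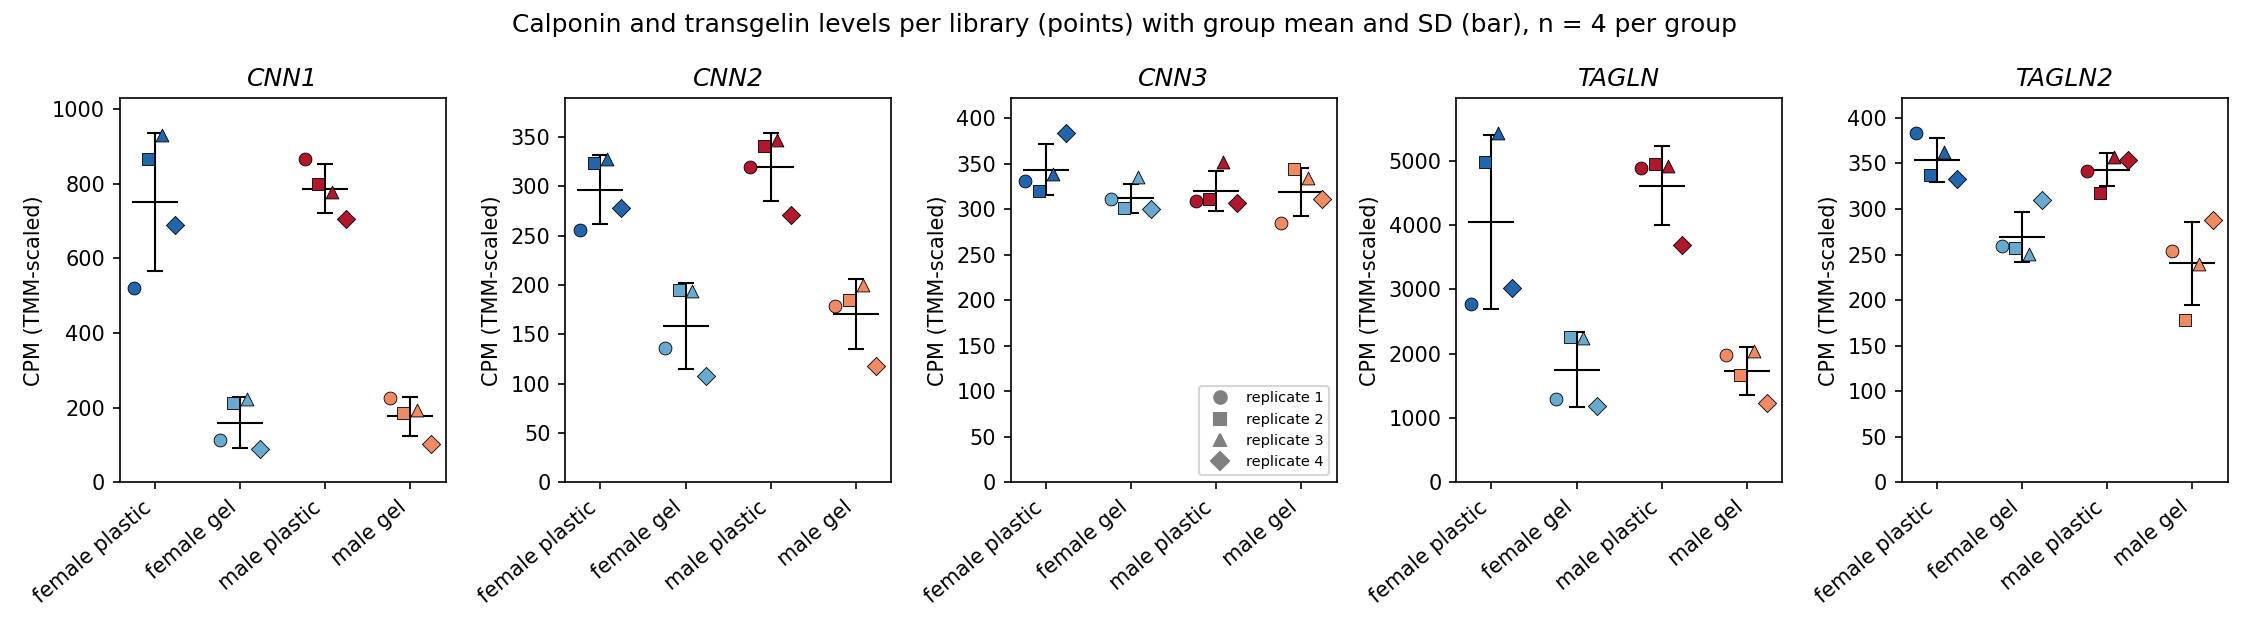
Levels of the 5 genes in CPM (y axis, from 0) in each library (points, shaped by replicate number) of the 4 groups (x axis), with the group mean and SD (bars, n = 4). CNN1, CNN2, TAGLN and TAGLN2 are higher on plastic than on gel without overlap in both sexes, whereas the 16 CNN3 libraries lie between 285.4 and 383.9 CPM.

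**Figure D2:**
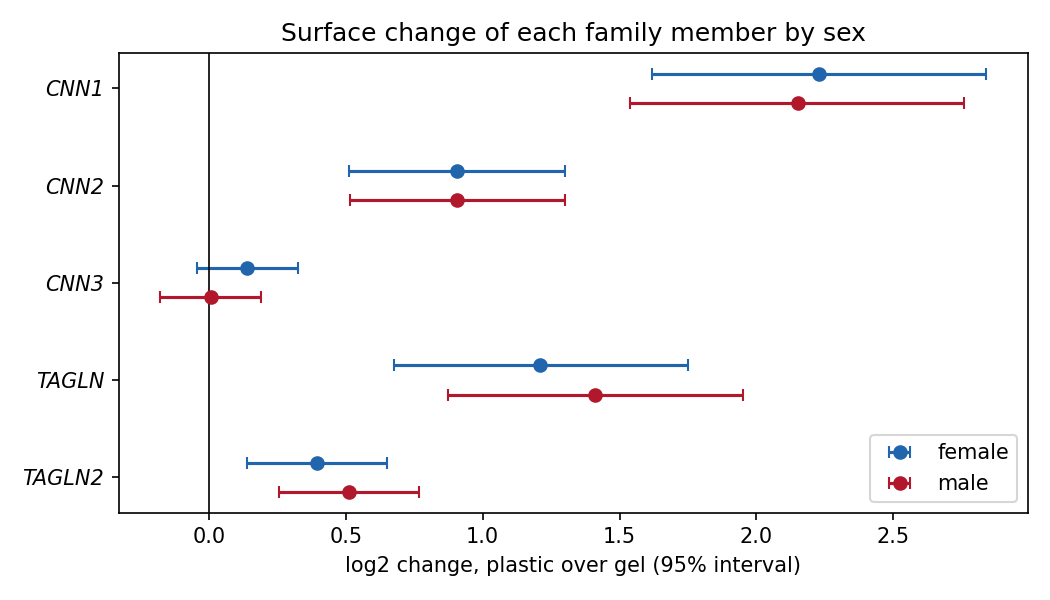
Log2 change on plastic over gel (x axis) of each gene in female (blue) and male (red) cells, with 95% intervals (lines). The intervals of CNN3 include 0 and those of the 4 other genes do not; female and male intervals overlap for every gene.

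Replicate numbers are shared between the surfaces. Over all tested genes, libraries of the same sex and number deviated together (r 0.126 to 0.489), so a change can be read per number. Not every member did so in every number. On the log2 scale TAGLN2 deviated by -0.109 on plastic and -0.405 on gel in male 2, but by -0.0871 and 0.208 in female 4. For CNN1, CNN2, TAGLN and TAGLN2 plastic lay wholly above gel in each sex, so any pairing would give 8 of 8 and only the folds add to this. CNN1 was higher on plastic in 8 of 8 numbers, by 3.83-fold to 7.73-fold. The largest CNN1 changes, 7.73-fold in female 4 and 6.83-fold in male 4, came with the lowest gel levels, and the other 6 numbers ran from 3.83-fold to 4.53-fold. CNN2 was higher in 8 of 8, by 1.66-fold to 2.57-fold, and there too female 4 and male 4 were the largest. TAGLN was higher in 8 of 8, by 2.14-fold to 3-fold; female 4 (2.52-fold) and male 4 (3-fold) were again the largest of their sex, close to female 3 (2.42-fold) and male 2 (2.95-fold). TAGLN2 was higher in 8 of 8, by 1.07-fold in female 4 to 1.78-fold in male 2, and CNN3 in 6 of 8, by 0.903-fold to 1.28-fold. Fitting the number as a block changed no call on the 5 genes. It gave smaller SEs for CNN1 (0.173 in female and 0.172 in male cells), CNN2 (0.115 in each sex) and TAGLN (0.094 in female and 0.0946 in male cells). The other edgeR SEs and intervals printed here come from fits without that block.

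Replicates differed more on gel than on plastic for CNN1 in both sexes. Its coefficient of variation was 24.6% on plastic and 42.6% on gel in female cells, and 8.44% on plastic and 29.5% on gel in male cells. CNN2 had 11.8% on plastic and 27.4% on gel in female cells, and 10.8% and 21% in that order in male cells. TAGLN varied by 33.4% on both surfaces in female cells, and by 13.3% on plastic and 21.4% on gel in male cells. TAGLN2 varied by 6.71% on plastic and 10.1% on gel in female cells, and by 5.28% on plastic and 19% on gel in male cells. CNN3 stayed between 5.16% and 8.23% in all 4 groups. These differences of spread were not tested.

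The members with the larger changes also moved together within groups. Over the 16 deviations of log2 CPM from the group means, which are not independent because a replicate number gives a library on each surface, CNN1 went with CNN2 (Pearson r 0.938, Spearman rho 0.879) and with TAGLN (r 0.92, rho 0.935), and CNN2 with TAGLN (r 0.898, rho 0.894). TAGLN2 went the other way to CNN1 (r -0.524, rho -0.476) and CNN2 (r -0.608, rho -0.585), and CNN3 went with CNN1 at r 0.072 (rho -0.0382). The libraries of female 1, female 4 and male 4 were the lowest of their groups for CNN2 and TAGLN on both surfaces. On gel, CNN1 was 114.8, 89.1 and 103.2 CPM in those 3 libraries, against 185 to 226.2 CPM in the other 5. The summed endothelial markers were 384, 433 and 414 CPM in the same 3 gel libraries, against 217 to 264 CPM in the other 5, and on plastic 775, 611 and 474 CPM, against 284 to 388 CPM. ERG, 1 of the genes in that sum, ran from 92.8 to 252 CPM over all 16 libraries. PECAM1 was 81.3, 89.2 and 83.1 CPM in those gel libraries, against 34.8 to 55.6 CPM in the other 5. CDH5 was 20.3, 47.1 and 44.8 CPM in the same 3, against 4.97 to 11.2 CPM. VWF, another endothelial marker, did not follow: it was 3.39, 0.217 and 0.135 CPM in the same 3 gel libraries, against 0.565 to 4.17 CPM in the other 5, so that female 4 and male 4 were the lowest. The part of endothelial cells in the low CNN1 of those libraries was not tested. Without all 6 libraries of these numbers the surface changes of CNN1 were 2.05 in female cells (adjusted p = 7.94e-06) and 2.03 in male cells (adjusted p = 1.01e-06), and those of TAGLN were 1.22 in female cells (adjusted p = 0.000125) and 1.38 in male cells (adjusted p = 8.67e-06), by edgeR.

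Members changed unequally, and this was tested on the ratio of the counts of 2 members within a library, which does not depend on library size. Ratios are compared between surfaces only, since transcript lengths were not used to set one gene's level against another's. The test was an exact permutation test, two-sided, over 70 assignments of 4 against 4 libraries, with 10 tests (5 pairs, 2 sexes) adjusted together; its smallest p is 0.0286, which becomes 0.0317 after adjustment. The ratio of CNN1 to CNN3 was higher on plastic by 2.16 on the log2 scale in female cells (SE 0.37) and by 2.2 in male cells (SE 0.27), each with an exact permutation adjusted p = 0.0317. CNN1 to CNN2 was higher by 1.36 (SE 0.16) in female and 1.28 (SE 0.13) in male cells, and CNN2 to CNN3 by 0.80 (SE 0.23) and 0.92 (SE 0.175) in the same order, again at the smallest p in each case. CNN1 to TAGLN was higher by 1.09 (SE 0.13) in female cells and 0.78 (SE 0.12) in male cells, also at the smallest p, so CNN1 moved more than the other smooth muscle marker of the family. TAGLN to TAGLN2 was higher by 0.90 (SE 0.29, exact permutation adjusted p = 0.0317) in male cells; in female cells the difference was 0.815 (SE 0.40, adjusted p = 0.114 by the exact permutation test), with overlap between the surfaces. With the replicate number as a block, signs of 4 differences can give no p below 0.125, and all 10 ratios had that p. Leaving out any 1 of the 4 female plastic libraries ended the call on CNN2 to CNN3 in female cells (0.855, 0.727, 0.748 and 0.886 without libraries 1 to 4; exact permutation adjusted p = 0.0635 each). The male call on TAGLN to TAGLN2 ended likewise without male gel 4 (0.647) or without male plastic 1 (0.864), 2 (0.823) or 3 (0.883), at the same exact permutation adjusted p. In both ratios the surfaces did not overlap, with all libraries or with 1 left out. With fewer libraries this test has fewer assignments and its p moves in coarser steps, so a lost call there is not a loss of separation.

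**Figure D3:**
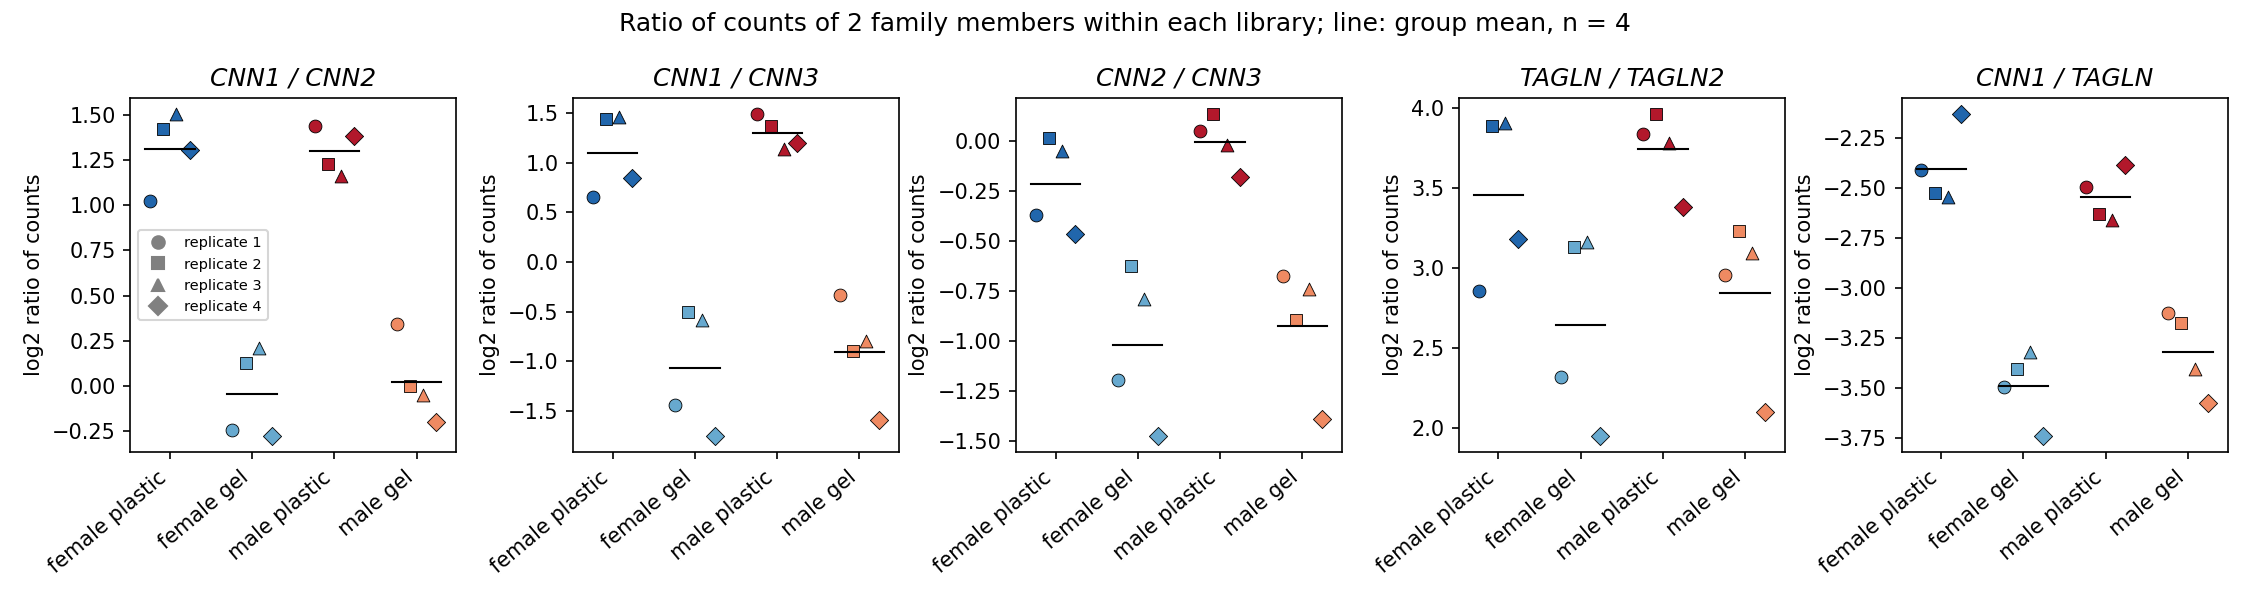
Log2 ratio of the counts of 2 members (y axis; each panel 1 pair) in each library of the 4 groups (x axis), with group means as lines, n = 4. Plastic lies above gel without overlap in every panel and sex except TAGLN to TAGLN2 in female cells.

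Female and male cells were compared on each surface, since the study is about sex differences in valve myofibroblasts. None of the 5 genes passed the test: 0 of 5 were called on plastic and 0 of 5 on gel by edgeR, by DESeq2 and by limma-voom, and 0 of 5 had an unadjusted p under 0.05. Over all tested genes edgeR called 0.124% on plastic and 0.103% on gel, and 1.95% on plastic and 3.85% on gel had an unadjusted p under 0.05. On plastic CNN1 averaged 751.1 ± 184.5 CPM in female cells and 786.9 ± 66.45 CPM in male cells (SD, n = 4 each; log2 difference -0.07, SE 0.28, adjusted p = 0.985), with a 95% interval of the fold from 0.637 to 1.43. TAGLN averaged 4047 ± 1351 CPM in female plastic and 4610 ± 615 CPM in male plastic (log2 difference -0.19, SE 0.25, adjusted p = 0.98; interval of the fold 0.608 to 1.27). On gel TAGLN averaged 1748 ± 583.1 CPM in female cells and 1732 ± 371 CPM in male cells (log2 difference 0.01, SE 0.25, adjusted p = 0.992; interval 0.699 to 1.46). CNN3 had the tightest interval between the sexes, a fold of 0.862 to 1.11 on gel and of 0.945 to 1.22 on plastic. TAGLN2 was 269.3 ± 27.32 CPM in female gel and 240.2 ± 45.7 CPM in male gel (log2 difference 0.16, SE 0.12, adjusted p = 0.852), with male gel 2 the lowest library.

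The surface change itself was then compared between the sexes, as the change in female cells minus that in male cells. The difference on the log2 scale was 0.08 for CNN1 (SE 0.39, adjusted p = 0.963), -0.002 for CNN2 (SE 0.26, adjusted p = 0.999), 0.13 for CNN3 (SE 0.12, adjusted p = 0.78), -0.20 for TAGLN (SE 0.35, adjusted p = 0.879) and -0.12 for TAGLN2 (SE 0.17, adjusted p = 0.847). No gene in the whole table passed this test by edgeR (0% of tested genes; 633, or 4.36%, had an unadjusted p under 0.05), nor by DESeq2 (0) or limma-voom (0). The 95% interval of the CNN1 difference ran from -0.75 to 0.90, and that of CNN3 from -0.13 to 0.40. For CNN1 this is a ratio of folds from 0.594 to 1.87, so the test does not show that the sexes respond alike. These intervals come from the fit without the replicate block. With the block, 0 genes were called higher and 0 lower in this comparison.

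The genes most like each member were named by the highest Pearson r of log2 CPM. Over all 16 libraries, which fall into a plastic and a gel cluster, CNN1 was most like ACTA2 (smooth muscle alpha-actin, r 0.996), CRIM1 (0.992), DDAH1 (0.992) and the transcription factor KLF7 (0.991). Over the deviations from group means it was most like MYLK (myosin light chain kinase, r 0.982), LMOD1 (leiomodin, an actin nucleator of smooth muscle, 0.973), TUFT1 (0.972) and ACTA2 (0.968). TAGLN deviated most like MYH11 (smooth muscle myosin heavy chain, r 0.974), DMPK (0.971), TUFT1 (0.97) and RIMS3 (0.968), and CNN2 most like LMCD1 (0.984), NKD1 (0.982), RUSC2 (0.968) and WDFY2 (0.965). TAGLN2 deviated most like FOXK2 (r 0.963), ARHGEF7 (0.959), NUP188 (0.959) and RBM14 (0.954). CNN3 had the weakest partners, ATP5I (0.894), ENY2 (0.853), HSBP1 (0.852) and KAT6A (0.851). These are the extremes of a search over all tested genes in 16 libraries and are given as a description; by Spearman rho 0 to 2 of the 4 names were kept for CNN2, CNN3, TAGLN and TAGLN2 on either measure and for CNN1 over all libraries.

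Other genes of the same contractile programme were read from a list of 20. This list and the other gene lists were chosen with earlier results of these data known, so their counts are a description. In female cells the test called 17 higher, 0 lower and left 3 uncalled; in male cells it called 19 higher, 0 lower and left 1 uncalled. By the same rule 12.7% of all tested genes were called higher and 11.3% lower in female cells, and 12.9% higher and 12.9% lower in male cells. The median log2 change of the list was 1.4 in female and 1.54 in male cells, beside -0.04 and -0.03 over all tested genes in the same order. MYH11 averaged 614.6 CPM on plastic and 43.92 CPM on gel in female cells (log2 change 3.81, SE 0.52, adjusted p = 6.08e-05), and 660.6 CPM on plastic and 38.56 CPM on gel in male cells (4.1, SE 0.53, adjusted p = 3.29e-05). The focal adhesion protein VCL (vinculin) rose by 1.84 (SE 0.17) in female and 1.80 (SE 0.17) in male cells, ACTG2 (enteric actin) by 5.51 and 5.60, and DES (desmin) by 8.21 and 8.61 in that order. DES passed the filter through its plastic libraries, with 90.26 CPM on plastic and 0.298 CPM on gel in female cells, so its fitted change depends on the prior count. By size, CNN1 lay close to ACTA2 (2.18 in female and 2.32 in male cells), and CNN2 close to CSRP1 (0.75 in female and 0.98 in male cells). Those with no call in female cells were SYNPO2 (0.95, adjusted p = 0.139), TGFB1I1 (0.36, adjusted p = 0.171) and FHL2 (0.21, adjusted p = 0.415), of which SYNPO2 was not called in male cells either (0.83, adjusted p = 0.185). Markers of differentiated smooth muscle moved with these genes: 8 of 9 tested rose and 1 fell in each sex, with sums of 1360 to 2570 CPM on plastic and 486 to 660 CPM on gel in female cells, and 1820 to 2360 CPM on plastic and 450 to 637 CPM on gel in male cells. That list shares MYH11, LMOD1 and SMTN with the contractile list and MYOCD with the SRF list, so part of its count repeats theirs. CASQ2, another of its called genes, averaged 7.07 CPM on plastic and 0.305 CPM on gel in male cells, so it could hardly be called lower. Summed cardiac and skeletal muscle markers were 6.35 to 72 CPM on plastic and 2.07 to 5.13 CPM on gel in female cells, and 14.7 to 99 CPM on plastic and 1.62 to 7.38 CPM on gel in male cells, with 2 of 4 tested genes called higher in female and 3 of 4 in male cells. Among them ACTC1 (cardiac alpha-actin) averaged 30.72 CPM on plastic and 1.8 CPM on gel in female cells (log2 change 4.08, SE 1.08, adjusted p = 0.0111), with overlap between the surfaces. In male cells it averaged 56.61 CPM on plastic and 2.575 CPM on gel (4.44, SE 1.08, adjusted p = 0.00622). NPPB, also called higher in male cells, averaged 1.21 CPM on plastic and 0.0337 CPM on gel. With so little on gel, NPPB too could hardly be called lower. Summed neuronal markers were also higher on plastic, at 13.8 to 81.1 CPM on plastic and 3.23 to 11 CPM on gel in female cells, and 13.1 to 45.7 CPM on plastic and 2.35 to 8.08 CPM on gel in male cells, with 2 of 5 tested genes called higher in each sex. Of the 10 valve interstitial cell and fibroblast markers, 2 were called higher and 3 lower in female cells. In male cells 4 were called higher and 3 lower, the latter being PDGFRA (log2 change -2.44), LUM (-1.62) and DCN (-1.33). Of 19 tested endothelial markers, 4 were called higher and 0 lower in each sex, with a median log2 change of 0.842 in female and 0.426 in male cells. The part of other cell types in the surface changes was not tested.

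Transcripts of SRF and of 3 of its cofactors were called higher on plastic, 4 of 4 in each sex. The share over all tested genes was 12.7% in female and 12.9% in male cells. The median log2 change of the 4 was 0.887 in female and 1.11 in male cells. The myocardin-related factor MKL1 (now MRTFA) averaged 157.5 CPM on plastic and 68.56 CPM on gel in female cells (log2 change 1.2, SE 0.16, adjusted p = 4.43e-05), and 173.4 CPM on plastic and 64.46 CPM on gel in male cells (1.43, SE 0.16, adjusted p = 8.76e-06). MKL2 (MRTFB) rose by 0.54 (SE 0.09, adjusted p = 0.000462) in female and 0.48 (SE 0.09, adjusted p = 0.00119) in male cells. MYOCD (myocardin), a cofactor restricted to heart and smooth muscle, averaged 12.9 CPM on plastic and 3.05 CPM on gel in female cells (2.08, SE 0.47, adjusted p = 0.00387), and 13.58 CPM on plastic and 2.79 CPM on gel in male cells (2.26, SE 0.47, adjusted p = 0.00219). SRF itself rose by 0.57 (SE 0.14, adjusted p = 0.00773) in female and 0.79 (SE 0.14, adjusted p = 0.000699) in male cells. Cofactor activity is not measured by these counts. For MKL1 and MKL2 it is set largely by their entry into the nucleus.

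**Figure D4:**
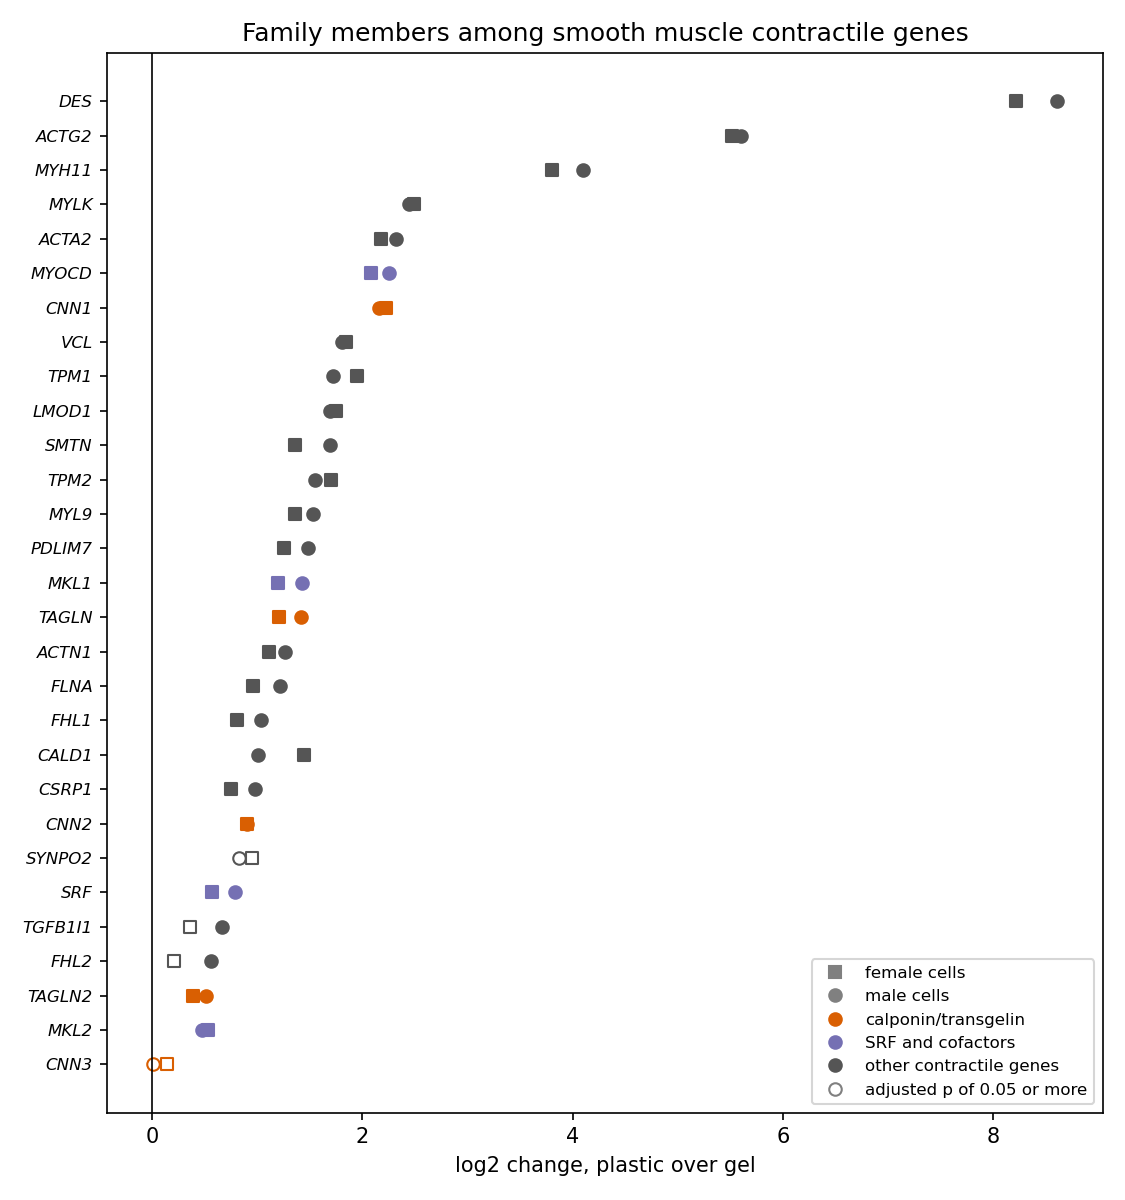
Log2 change on plastic over gel (x axis) of the family (orange), of SRF and its cofactors (purple) and of 20 smooth muscle contractile genes (grey), in female (squares) and male (circles) cells; open symbols did not pass the test. CNN1 lies close to ACTA2, and CNN3 is the lowest of all the genes drawn.

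The calponin-homology domain is shared with many larger actin-binding proteins, of which 45 were listed and 38 tested. Of these, 22 were called higher, 1 lower and 15 neither in female cells, and 22 higher, 2 lower (1 without male gel 3) and 14 neither in male cells, with a median log2 change of 0.62 in each. Over all tested genes 12.7% were called higher and 11.3% lower in female cells, and 12.9% higher and 12.9% lower in male cells. MICAL2, an actin-oxidising enzyme, rose by 1.1 (SE 0.12) in female and 1.25 (SE 0.12) in male cells, and IQGAP1, a scaffold of the cell cortex, by 1.14 (SE 0.12) and 0.92 (SE 0.12) in that order. MACF1, which links actin to microtubules, rose by 1.07 (SE 0.11) in female and 1.15 (SE 0.11) in male cells. CLMN (calmin) fell in both, by 0.88 (SE 0.20, adjusted p = 0.00339) in female and by 0.71 (SE 0.19, adjusted p = 0.013) in male cells, and EHBP1 changed by -0.12 (adjusted p = 0.592) in female cells and fell by 0.50 (SE 0.14, adjusted p = 0.0146) in male cells; no gene passed the test of a difference between the sexes in its surface change. The list shares FLNA, ACTN1 and SMTN with the contractile list.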

How the data were processed

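Raw counts per gene of 16 libraries were used as the authors deposited them: whole numbers in 1 table, with groups and replicate numbers taken from the sample titles. Per the submitters' processing notes, FastQC 0.11.5, Trimmomatic 0.36, HISAT2 2.1.0, SAMtools 1.3.1 and featureCounts were used with Sscrofa11.1; the strand setting and featureCounts version are not given in the sources used here. Of 29576 entries, 24 with numbers in place of names (0.169% of counts) were left out; the 29552 others matched RefSeq symbols of the same assembly.

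After filterByExpr, 14530 genes were tested with the quasi-likelihood test of edgeR 4.0.16 (R 4.3.3; TMM factors 0.896 to 1.12) on 4 group means over all 16 libraries, with 12 residual degrees of freedom. Standard errors are the log2 change over the square root of F. Ratios of counts used a prior count of 2. Alternatives were RLE factors, DESeq2 1.42.0, limma-voom (limma 3.58.1), 2 other filters, the 8 compared libraries alone, the replicate number as a block, and libraries left out. Deviations from group means correlated at 0.126 to 0.489 between same-numbered libraries of a sex, and each correlated best with its own number in 8 of 8, so the numbers were taken to pair the surfaces; the design text speaks of 4 biological replicates per sex. No 2 libraries of a group were copies (chi-square per degree of freedom 9.932 to 81.86 over 24 pairs).

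Members and lists were chosen with earlier results of these data known. Named beside the members were, per list, sex and direction, the 3 called genes of smallest adjusted p, 7 fixed genes, and the 4 genes most like each member; the text describes part of them, a gene among them is not reported here, and neighbouring genes, SYNPO2, TGFB1I1, FHL2, CSRP1 and ACTC1 were picked after their values were seen. Per-length shares of the family were not computed, as no transcript lengths were used here. Plots used matplotlib 3.10.9 (Python 3.11.15).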

Additional observations from a re-analysis of the deposited data

Results flagged for a closer look

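In groups of 4, a library was singled out where its gap to the nearest other, divided by the group's range, exceeded Dixon's 95% critical value. Of 20 checks (5 genes in 4 groups) 3 did so, and chance alone gives about 1. TAGLN was 3688 CPM in male plastic 4, against 4890 to 4946 CPM in male plastic 1 to 3; this replicate was also the lowest for TAGLN on gel. TAGLN2 was 309.8 CPM in female gel 4, against 250.2 to 259.3 CPM in the other female gel libraries. CNN3 was 352.3 CPM in male plastic 3, against 307.4 to 310.9 CPM in the other male plastic libraries.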

How the results depend on the processing

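On the 5 genes, CNN1, CNN2 and TAGLN kept their calls and direction between surfaces in both sexes under all 25 alternatives (log2 changes of 2.03 to 2.43, 0.76 to 1.02 and 1.04 to 1.37 in female cells, and of 1.97 to 2.29, 0.77 to 0.99 and 1.28 to 1.51 in male cells), as did TAGLN2 in male cells (0.39 to 0.61); CNN3 was called under none. TAGLN2 in female cells kept its direction (0.36 to 0.48) and lost its call in 6 of 25, named above. No sex difference or difference of surface changes of the 5 genes was called under any alternative. The replicate block changed no call on the 5 genes (CNN1 2.3 in female and 2.21 in male cells). Leaving out the 6 libraries of female 1, female 4 and male 4, a choice made after seeing the data, left 2 female libraries per surface, and 1968 genes were called there in place of 3476.

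For the ratios, that choice gave adjusted p = 0.333 in female and 0.2 in male cells by exact permutation tests, which cannot pass the threshold with so few libraries. The differences were then 1.29 (female) and 1.18 (male) for CNN1 to CNN2, 1.98 and 2 for CNN1 to CNN3, 0.83 and 0.64 for CNN1 to TAGLN, 0.69 and 0.825 for CNN2 to CNN3, and 0.77 for TAGLN to TAGLN2 in male cells. With the replicate block, whose p cannot fall below 0.125, they were 1.36 and 1.28, 2.16 and 2.2, 1.09 and 0.78, 0.80 and 0.92, and 0.90. Leaving out 1 library gave 0.65 to 0.94 for CNN2 to CNN3 in female cells and 0.65 to 1.02 for TAGLN to TAGLN2 in male cells, each losing its call (adjusted p = 0.0635) in 4 of 8 exact permutation tests. The surfaces did not overlap in those tests either. Without male gel 2 and female plastic 4, CNN2 to CNN3 in female cells was 0.89 (adjusted p = 0.0635 by the same exact test). A share of the family per length was not run.

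Counts per library limit the members little (the lowest was 2300, CNN1 in male gel 4); 4 replicates limit the sex comparisons, and p values cover the spread between these replicates.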
